A study of Mus musculus with 6 samples.

Results

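A set of fibroblasts in mouse inguinal white adipose tissue (iWAT) carried the markers Dpp4 and Pi16 together with Dmkn, Krtdap and Sbsn, 3 genes of secreted proteins that are best known from the skin. They were chosen by their own unique molecular identifier (UMI) counts. A barcode was a member if it held at least 2000 UMIs, under 10% mitochondrial UMIs, Dcn at 30 or more per 10000 UMIs, no UMI of Pecam1, Cdh5, Ptprc or F3, at least 3 UMIs of Pi16 and Dpp4 together and at least 2 UMIs of Dmkn, Krtdap and Sbsn together. This rule found 12102 of 68103 barcodes. They lay within 22208 Dpp4+ fibroblasts, the barcodes that met every condition except the last, and within 46975 Dcn+ fibroblasts, which met the conditions on depth, Dcn, Pecam1, Cdh5 and Ptprc alone.

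The study asked how aging and cold exposure affect the stromal cells of iWAT. Stromal vascular cells were sorted as live cells depleted of CD45+ immune cells, and 6 single-cell RNA-seq libraries were made, 1 for each age and temperature. All mice were C57BL/6 males that were first held at 30 °C for 3 weeks. Young mice were 9 weeks old and aged mice 57 weeks old. At each age 1 library came from mice kept at 30 °C (thermoneutrality, TN), 1 from mice kept in the cold, at 6 °C, for the last 3 days (3D cold) and 1 from mice that spent 14 days at that temperature (14D cold). Mice came from 2 suppliers, and the part of the supplier in any age difference was not tested. The number of mice behind each library was not given outright in the sources used here. For stromal vascular cells the study states only that mice were pooled solely where it says so. Each library counted as 1 sample, age was compared over 3 libraries against 3, and p-values measured only the spread between these libraries.

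Dpp4+ Pi16+ fibroblasts lie in the connective tissue sheets around and between fat lobules, and they act as multipotent progenitors that can give rise to Icam1+ preadipocytes. Dpp4 is a cell surface peptidase, and Pi16 is a secreted or membrane-anchored peptidase inhibitor. Dmkn (dermokine), Krtdap (keratinocyte differentiation-associated protein) and Sbsn (suprabasin) are secreted proteins of the upper layers of the epidermis, and their genes stand side by side in the genome.

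The 3 genes of the rule occupy 39627 bp of chromosome 7 on the forward strand of GRCm38. In the GENCODE M21 annotation Sbsn lies at 30751471 to 30756134, Dmkn at 30763756 to 30781063 and Krtdap at 30787896 to 30791097. A noncoding record named Tmem147os (30734739 to 30756126) overlaps Sbsn on the same strand. It was not among the genes counted, so any of its reads within Sbsn could not be told from those of Sbsn. The Tmem147os that was counted lies at 30729579 to 30745929 and ends before Sbsn. The sequence just upstream of each gene is shown because the 3 genes were detected together in the same cells. Each line gives the 100 bases before a RefSeq start site and the first transcribed base, 5′ to 3′ on the forward strand of GRCm38.p6, at chr7:30751371-30751471 for Sbsn, chr7:30763656-30763756 for the upstream start of Dmkn, chr7:30776305-30776405 for its internal start and chr7:30787805-30787905 for Krtdap. Capitals mark TGAGTCA, the letters of an AP-1 element.
Sbsn: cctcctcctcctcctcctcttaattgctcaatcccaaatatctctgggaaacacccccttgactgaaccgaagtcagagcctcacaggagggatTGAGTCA
Dmkn, upstream start: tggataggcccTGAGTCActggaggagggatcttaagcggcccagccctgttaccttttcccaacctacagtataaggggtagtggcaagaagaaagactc
Dmkn, internal start: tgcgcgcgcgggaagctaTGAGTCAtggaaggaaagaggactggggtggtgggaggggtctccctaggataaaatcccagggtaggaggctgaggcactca
Krtdap: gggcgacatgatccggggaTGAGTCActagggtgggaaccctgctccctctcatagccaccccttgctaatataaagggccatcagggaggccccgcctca

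TGAGTCA began 6 bases before the start site of Sbsn, 89 and 82 bases before the upstream and internal starts of Dmkn and 81 bases before that of Krtdap. Of 32851 RefSeq promoters of 300 bases, 5.20% held TGACTCA or its reverse complement TGAGTCA. Among the other motifs searched on both strands, TATAAA stood 30 bases before the Krtdap start and in no other of these promoters, against 13.6% of all promoters. The letters GGGCGG were in none of them, against 35.7% of all promoters. CCAAT was found in that of Krtdap (37.4% of all promoters) and CACCC in all but the upstream promoter of Dmkn (57.5%). These matches describe letters only.

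None of the neighboring genes tested was higher in members. Within 250 kb on either side, 41 other genes were annotated and 14 were abundant enough to test between members and Dpp4+ fibroblasts without any UMI of the 3 genes. The count of 0 higher genes compares with 11.6% of all 12125 genes tested that were higher (edgeR's quasi-likelihood F test, Benjamini-Hochberg adjusted, threshold 0.05). Fxyd5, named after its values were seen, was lower, with a log2 fold change of -0.34 (adjusted p = 0.0103), where 14.4% of all genes tested were lower, and the median of the 14 was 0.08.

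Members were similar in depth to the cells beside them. Their median UMI count was 9536.5 in young TN, 8007 in young 3D cold, 7486 in young 14D cold, 7353.5 in aged TN, 7153 in aged 3D cold and 7108 in aged 14D cold. In Dpp4+ fibroblasts without the 3 genes these medians were 9963, 7971, 7466, 7418, 6974.5 and 6646.5. The libraries contributed 1926, 1885, 2857, 1308, 2185 and 1941 members in that order, with 10020815 to 22816554 UMIs each. Young TN was thus the deepest library. Aged 14D cold stood apart before any filter, since 38.2% of its barcodes held under 2000 UMIs, compared with 7.04% to 11.7% in the others. Barcode sequences were rarely shared between libraries, with 21 member sequences (0.173%) that were members in more than 1 library.

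The label of the cells was checked against its markers. After each cell was thinned to 2000 UMIs, Pi16 was detected in 97.6% of members and Dpp4 in 61.4%. Sbsn was detected in 78.7%, Dmkn in 44.1% and Krtdap in 30.7%, and since these genes chose the cells the values are a description. In whole counts, 38.0% of members (4603 cells) held all 3 genes, 26.0% held Sbsn alone, 23.4% held Dmkn and Sbsn and 10.5% held Krtdap and Sbsn. Sbsn was therefore the gene that brought most cells in, and Dmkn alone or Krtdap alone accounted for 0.711% and 0.347%.

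The 3 genes were graded over Dpp4+ fibroblasts. Of the 22208 cells, 35.5% held no UMI of the 3 genes, 9.96% held 1, 10.0% held 2 to 3, 15.6% held 4 to 9 and 28.8% held 10 or more. Cells just inside and just outside the rule were close in depth in most libraries: in young TN the 242 cells with 2 UMIs had a median of 9660 UMIs and the 426 cells with 1 UMI a median of 10165, and in aged 14D cold, the library where they differed most, these medians were 3991 (214 cells) and 5020.5 (334 cells). Mean Pi16 was 38.2 UMIs per cell with 2 and 34.8 with 1 in young TN, and 11.8 and 12 in aged 14D cold.

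Across single Dpp4+ fibroblasts the 3 genes went together. With UMIs divided by each cell's total, Spearman's rho over the cells of a library was 0.656 to 0.729 for Dmkn and Sbsn, 0.540 to 0.657 for Krtdap and Sbsn and 0.550 to 0.592 for Dmkn and Krtdap. Over all Dcn+ fibroblasts the sum of the 3 genes and the sum of Pi16 and Dpp4 gave 0.544 to 0.675. The cells of a library share their depth and their free RNA, so these are descriptions.

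Other sets of cells seldom held the 3 genes. At 2000 UMIs per cell, 2 or more UMIs of the 3 genes were held by 37.5% of Dpp4+ fibroblasts, by 1 of 4123 endothelial cells (0.0243%), by 9 of 10843 Icam1+ preadipocytes (0.0830%) and by 2.02% of 1733 Cd142+ fibroblasts. Before thinning, 7 of the endothelial cells (0.17%) held that many, at median depths of 3382 to 4214.5 UMIs per library. Icam1+ preadipocytes were at 0 CPM of Pi16 and Dpp4 in every library, and those genes went with the 3 genes across Dcn+ fibroblasts. The low share of Icam1+ preadipocytes was thus partly set by how they were chosen.

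Although Dmkn, Krtdap and Sbsn are genes of skin, the defining keratinocyte markers were detected in few members or none. At 2000 UMIs per cell, 9 of 14 keratinocyte genes were in no member, among them Krt5, Krt15, Krt1, Trp63 and Epcam, and 0 of 12102 cells allows a share of cells with a UMI of up to 0.0248%, a limit on detection at this depth and not on expression. Krt14 was in 1 member. Krt10, a keratin of the upper epidermis, was in 6.17% of members, in 5.42% of Dpp4+ fibroblasts without the 3 genes and in 5.40% of Icam1+ preadipocytes, so it was spread over all of them. The summed level of the 14 genes in members was 31.4 to 39.4 UMIs per 1000000 UMIs (CPM), of which Krt10 made up 31.0 on average.

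Markers of other cells were low as well, with shares of cells again at 2000 UMIs per cell and levels from whole counts. The mesothelial markers Msln, Upk1b, Muc16 and Wt1 were in 0 of 12102 members, whereas Krt19, a keratin of simple epithelia on the same list, was in 2.71% of members and in 0.988% of the cells without the 3 genes. The 11 macrophage genes summed to 8.72 to 17.2 CPM, and the 6 Schwann cell genes, led by Mbp, to 30.6 to 53 CPM, with Sox10 in 0 members at 2000 UMIs and at up to 0.0728 CPM in whole counts. The 7 endothelial genes summed to 140 to 516 CPM, nearly all Fabp4, the fatty acid-binding protein that adipocyte precursors also make, and Pecam1 and Cdh5 were at 0 by the rule. The 8 genes of smooth muscle and pericytes summed to 116 to 280 CPM, led by Acta2, which was detected in 1.74% to 5.98% of members. The part of these cells in the results was not tested.

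**Figure D1:**
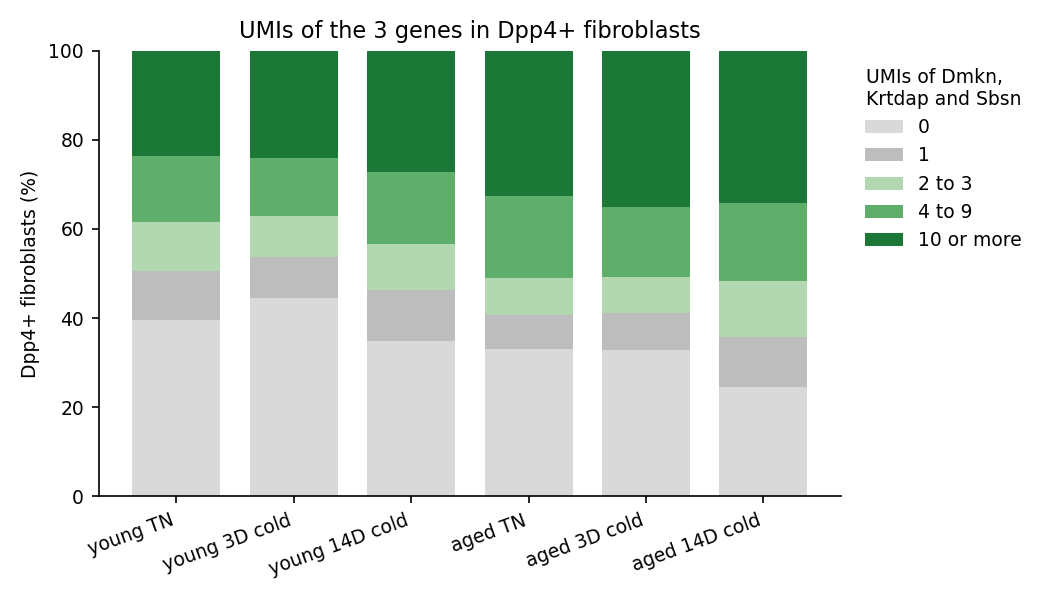
Share of Dpp4+ fibroblasts (y axis, percent) in each of the 6 libraries (x axis) by the UMIs of Dmkn, Krtdap and Sbsn that a cell held, with the members in green. Cells with 10 or more UMIs made up 23.7% to 27.2% in young and 32.7% to 35.2% in aged libraries.

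Aged libraries held a larger share of members among their Dpp4+ fibroblasts. Members were 49.5% of Dpp4+ fibroblasts in young TN (exact binomial 95% confidence interval 47.9% to 51.1%, counting error only), 46.3% in young 3D cold and 53.8% in young 14D cold. They were 59.3% in aged TN, 59.0% in aged 3D cold and 64.3% in aged 14D cold. The ages did not overlap, and within each age the share was highest after 14 days of cold. The mean rose from 49.8% ± 3.79 (SD, n = 3 libraries) to 60.8% ± 2.99 (SD, n = 3), a difference of 11.0 percentage points (two-sided exact permutation test, p = 0.1, the smallest p that 3 libraries against 3 allow). With the rule applied to counts thinned to 2000 UMIs per cell, the shares were 34.3% ± 4.38 and 50.1% ± 3.28 (p = 0.1 in the same exact permutation test).

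In size the difference was larger for Dmkn and Krtdap than for Sbsn. Cells with 2 or more UMIs of Dmkn were 19.4%, 19.2% and 22.1% of young and 37.4%, 37.3% and 39.1% of aged Dpp4+ fibroblasts at TN, 3D cold and 14D cold. For Krtdap these shares were 12%, 14.5% and 15.8% in young and 24.3%, 28.9% and 30.6% in aged libraries. For Sbsn they were 47.7%, 44.5% and 52.1% in young and 54.1%, 53.5% and 54.7% in aged libraries. The mean differences were 17.7, 13.9 and 5.95 percentage points (p = 0.1 for each by the exact permutation test, and these single-gene shares were added after the data had been seen).

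As a share of all Dcn+ fibroblasts, members did not separate by age. Dpp4+ fibroblasts themselves were 53.8%, 46.7% and 56.8% of young and 31.6%, 42.8% and 50.3% of aged Dcn+ fibroblasts at TN, 3D cold and 14D cold. Members were 26.6%, 21.6% and 30.5% of Dcn+ fibroblasts in young and 18.7%, 25.2% and 32.4% in aged libraries, which overlap. Their mean difference, aged minus young, was -0.81 percentage points (two-sided exact permutation test, p = 0.9). Pi16, which sets which cells count as Dpp4+, was itself lower in aged libraries, as given below, and its part in these shares was not tested.

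The levels of the 3 genes were therefore also read in all Dcn+ fibroblasts, which were not chosen by them. In these sums Dmkn was at 78.9, 97.0 and 133 CPM in young and 134, 238 and 297 CPM in aged libraries at TN, 3D cold and 14D cold. Krtdap was at 38.4, 51.5 and 71.4 CPM in young and 62.6, 123 and 177 CPM in aged libraries. Sbsn was at 276, 305 and 441 CPM in young and 221, 357 and 459 CPM in aged libraries. Dmkn and Krtdap were higher in the aged library at every temperature, but young 14D cold was nearly level with aged TN for Dmkn and lay above it for Krtdap, and for Sbsn the ages overlapped.

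With temperature in the model, edgeR's test gave a rise with age of 1.07 on the log2 scale for Dmkn (SE 0.10, adjusted p = 0.00235) and 1.09 for Krtdap (SE 0.12, adjusted p = 0.00365), where 11.3% of 14630 genes tested passed. Sbsn gave -0.01 (SE 0.11, adjusted p = 0.95). Pi16 fell by 0.84 on the log2 scale, from 2420 ± 332 to 1366 ± 284 CPM (SD, n = 3 libraries each, adjusted p = 0.00621), and Dpp4 gave -0.40 (adjusted p = 0.0906). In a sum over cells, more cells with a gene and more of its RNA per cell cannot be told apart. Without a temperature term neither Dmkn (1.11, adjusted p = 0.114) nor Krtdap (1.17, adjusted p = 0.161) passed.

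**Figure D2:**
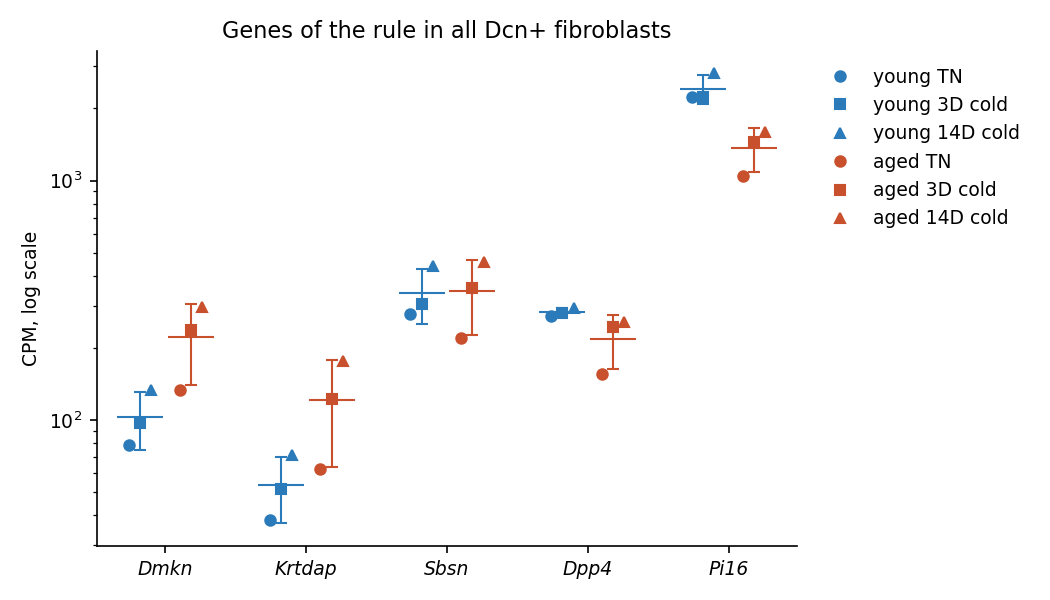
Level of 5 genes of the rule in all Dcn+ fibroblasts (y axis, CPM on a log scale), with 1 point per library, a horizontal line at the mean of 3 libraries and bars of 1 SD. Aged libraries are higher for Dmkn and Krtdap at each temperature, mixed for Sbsn and lower for Pi16.

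Within members, as a description of cells chosen by these genes, Dmkn was at 373 ± 79.2 CPM in young and 760 ± 97.7 CPM in aged libraries (SD, n = 3), Krtdap at 193 ± 51.9 and 404 ± 84.8, and Sbsn at 1209 ± 209 and 1172 ± 95.6. Pi16 was at 5082 ± 377 and 3439 ± 184 CPM, and Dpp4 at 528 ± 39.7 and 475 ± 37.9.

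Members differed from Dpp4+ fibroblasts without the 3 genes in far more than these genes. The 2 sets of cells were split by Dmkn, Krtdap and Sbsn, so only genes outside the rule were tested, within libraries, over 12 sums from 6 libraries. The sets also differed in Pi16, at a mean of 2982 CPM without the 3 genes and 4187 CPM in members, which were higher in each library. Dpp4 was at 464.5 and 492.9 CPM. The part of the Pi16 level in the differences below was not tested. Of 12125 genes, 3145 passed (25.9%), 1403 higher and 1742 lower in members. Genes higher in members included Bmp3, Itgb7, Ptgs1 and Akr1c18, and genes lower in members included Wisp2, Igfbp3 and Gas6. The genes named for their size were those that passed with the same direction in all 6 libraries at a mean of at least 20 CPM, a limit below which larger differences occurred.

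Bmp3, a bone morphogenetic protein family member that antagonizes other BMPs (chromosome 5, 98854415 to 98884396), had the largest difference above that limit. Its level was 1.97, 13.8, 7.55, 2.02, 11.2 and 10.1 CPM in cells without the 3 genes from young TN, 3D cold and 14D cold and aged TN, 3D cold and 14D cold. In members of the same libraries it was 28.4, 74.5, 50.8, 42.1, 92.3 and 76.2 CPM. Members were higher in all 6 libraries without overlap, and the log2 fold change was 2.94 (SE 0.12, adjusted p = 2.20e-11). In both sets the lowest value at each age was at TN.

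Itgb7, an integrin beta chain, was at 12.2, 18.2, 23.5, 25.4, 38.6 and 42.4 CPM in cells without the 3 genes and at 75.4, 120, 142, 134, 199 and 194 CPM in members, in the same order of libraries. The difference of 2.49 (SE 0.05, adjusted p = 1.19e-14) held in 6 of 6 libraries. Ptgs1, the cyclooxygenase that starts prostaglandin synthesis, rose from 17.1 ± 7.10 to 82.4 ± 15.1 CPM (SD, n = 6 sums each, log2 fold change 2.38). Cldn3, a tight junction claudin, rose from 9.58 to 45.9 CPM (2.25), and Dact2, a modulator of Wnt and TGF-beta family signaling, from 17.5 to 71.8 CPM (2.11).

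Among the other genes of the 15 highest were Akr1c18 (an aldo-keto reductase that inactivates progesterone), the surface proteins Cd200, Cd24a and Negr1, the matricellular protein Nov (also called Ccn3), the receptor Mrgprg, the deubiquitinase Uchl1, and Fam167a and Ecscr. Their log2 fold changes were 1.37 to 1.98, and these 14 named genes were higher in members in each of 6 libraries with edgeR adjusted p of 4.65e-06 or smaller.

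Above the same limit, the 10 genes lowest in members were led by Wisp2 (also called Ccn5), a matricellular protein made by adipose progenitors. It was at 62.4 to 112 CPM in cells without the 3 genes and at 7.48 to 24.5 CPM in members, and fell by 2.43 on the log2 scale (SE 0.11, adjusted p = 7.82e-11). Igfbp3, which binds insulin-like growth factors, was at 396 ± 151 CPM without the 3 genes and 105 ± 33.4 CPM in members (SD, n = 6), with a log2 fold change of -1.90. Gas6, the ligand of TAM receptor kinases, gave -1.68, the oestrogen-metabolizing enzymes Cyp1b1 and Sult1e1 gave -1.61 and -1.47, and the matrix protein Tgfbi -1.47. Inmt, Nmb and Slco2b1 lay between -1.38 and -1.51, and the 9 named genes were lower in 6 of 6 libraries.

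**Figure D3:**
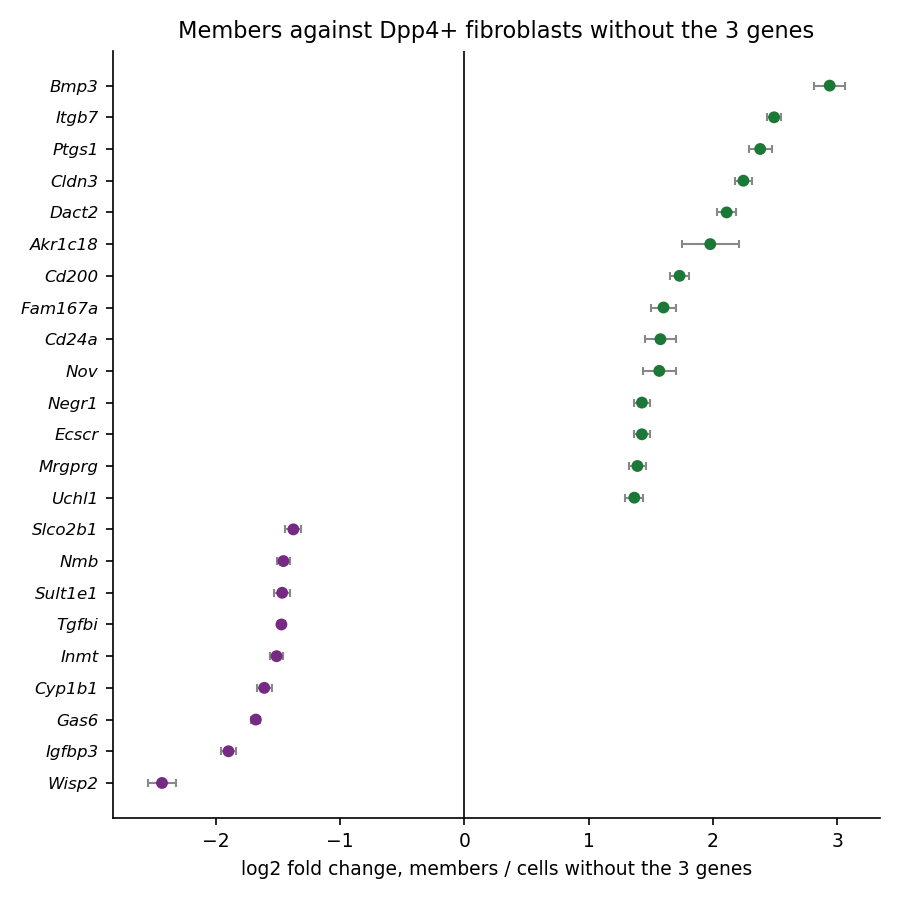
Log2 fold change (x axis) of 14 of the 15 highest and 9 of the 10 lowest genes (y axis) in members against Dpp4+ fibroblasts without the 3 genes, chosen for their size among genes that passed with the same direction in all 6 libraries at a mean of at least 20 CPM, with bars of 1 standard error. Values run from 2.94 for Bmp3 to -2.43 for Wisp2.

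The gene lists used here and below were chosen with earlier results of these data known, so their counts are descriptions. Among the marker lists, genes of the Dpp4+ progenitor state were higher in members. Of 15 such genes, 14 were higher and none lower, with a median log2 fold change of 0.73 beside -0.000348 over all genes, of which 11.6% were higher and 14.4% lower. Uchl1 went from 44.2 to 114 CPM, Limch1 from 67.9 to 128 and Cd55, a brake on complement, from 372 to 633. Genes of the other stromal states were lower in members. Of the Icam1+ preadipocyte genes 9 of 11 were lower (median -0.65), among them Icam1 itself, an adhesion molecule, at 115 CPM without the 3 genes and 46.5 CPM in members. All 10 Cd142+ fibroblast genes were lower (median -1.12), such as Cygb (233 to 110 CPM) and the BMP family member Gdf10 (117 to 54.8). Cxcl13, a B cell chemokine, and Nrcam, a cell adhesion molecule, gave -1.28 and -1.0. They were listed as markers of another group of Dpp4+ fibroblasts, which the study does not name and which was not tested here.

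Signaling genes divided, and the same shares of all genes stand behind the counts of this and the next paragraphs. Of 20 Wnt genes, 6 were higher and 13 lower: the ligands Wnt10b (53.4 to 99.5 CPM, log2 fold change 0.91) and Wnt2 (56.8 to 105, 0.88) were higher in members, and the inhibitor Dkk2 (62.5 to 25.7, -1.28) was lower. Among 25 TGF-beta and BMP genes 7 were higher and 9 lower, with the ligands Bmp7 (0.88) and Bmp2 (0.87) higher. Of 20 guidance genes 7 were higher and 8 lower, with the ephrin Efna5 (0.88) and the semaphorin Sema3e (0.82) among the former. Of 24 surface and adhesion genes 8 were higher, including Cd200 (1.73) and Thy1 (0.73), and 9 lower.

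The matrix lists had more genes lower than higher in members. Of 15 collagens 2 were higher, Col14a1 (356 to 540 CPM) and Col12a1 (named after its values were seen), both of which sit on the surface of collagen fibrils, and 11 were lower, with a median of -0.30. Col12a1 was at 43.5, 33.7 and 32.5 CPM in young and 34.8, 25.3 and 27.1 CPM in aged cells without the 3 genes, and at 69.4, 46.6 and 64.9 CPM in young and 35.5, 23.7 and 25.1 CPM in aged members. Members were thus higher in 4 of 6 libraries, and the age difference itself differed between the cell sets (interaction -0.77, edgeR adjusted p = 0.00238). Of 18 elastic fiber genes 5 were higher, with the microfibril protein Mfap5 (1125 to 1745 CPM, 0.64), and 8 were lower, with Fbln1 (-1.30) and the crosslinking enzyme Lox (-1.18). Mfap4, a microfibril-associated protein below the limit of 20 CPM and named after its values were seen, was at 7.65 ± 4.61 CPM without the 3 genes and 0.463 ± 0.285 CPM in members (SD, n = 6, log2 fold change -3.995, edgeR adjusted p = 5.27e-11). Of 19 matrix glycoproteins and proteoglycans 4 were higher and 13 lower, and Igfbp5, a growth factor-binding protein, was among those higher (1689 to 4184 CPM, log2 fold change 1.35). Of 21 secreted proteases and inhibitors 6 were higher and 12 lower, with Serpina3n (-1.25) and Mmp3 (-1.0) among the latter.

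Genes of inflammation and fat handling were mostly lower in members. Of 11 complement genes 8 were lower, including C4b (-1.11) and C2 (-0.93), and Cd55 was higher. Of 22 chemokine and cytokine genes 13 were lower and 4 higher, and of 21 interferon and MHC class I genes 11 were lower and none higher. Of 22 adipogenic and lipid genes 13 were lower, such as Apoe (-0.96) and Lpl (-0.69), and 3 higher. Immediate early genes, which respond to tissue dissociation, were lower for 11 of 16 (median -0.20), and the part of the dissociation in these differences was not tested.

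In 117 of 12125 genes (0.965%) the age difference in members was not that in Dpp4+ fibroblasts without the 3 genes, by the interaction of age and cell set in edgeR's quasi-likelihood test with library as a block. The 5 largest with a mean of at least 20 CPM were Akr1c18, Clic5, Nov, Wisp2 and Crispld1. Both cell sets were chosen by Dmkn, Krtdap and Pi16, which changed with age in all Dcn+ fibroblasts. The part of that choice in these differences was not tested.

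Akr1c18 (chromosome 13, 4132615 to 4150654) fell with age outside the members, and its change within them did not pass. In cells without the 3 genes it was at 51.5, 81.8 and 71.6 CPM in young and 11.2, 11.3 and 20.3 CPM in aged libraries at TN, 3D cold and 14D cold. In members it was at 142, 202 and 172 CPM in young and 116, 145 and 173 CPM in aged libraries. The ages were far apart in the first set and overlapped in the second. The age log2 fold change was -2.32 without the 3 genes (edgeR adjusted p = 1.02e-06) and -0.25 in members (adjusted p = 0.0605), and the difference was 2.05 (SE 0.10, adjusted p = 4.08e-09).

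Clic5, an actin-linked chloride intracellular channel protein (chromosome 17, 44188584 to 44280172), rose with age in both sets. It was at 2.10, 2.67 and 3.55 CPM in young and 32.6, 41.0 and 32.9 CPM in aged cells without the 3 genes. In members it was at 12.4, 17.8 and 18.1 CPM in young and 50.0, 67.2 and 58.7 CPM in aged libraries. The ages did not overlap in either set, and the rise was smaller in members (1.86 against 3.68, difference -1.82, adjusted p = 5.26e-07).

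Nov rose with age by 0.81 in members and 1.82 in the other cells (difference -1.02, adjusted p = 9.96e-06). Wisp2 rose by 0.50 in members and fell by 0.31 elsewhere (edgeR adjusted p = 0.0449 for the fall), and the difference was 0.80 (adjusted p = 0.00152). Its ages overlapped in both sets. Wisp2 was at 7.48 to 18.5 CPM in young and 14.2 to 24.5 CPM in aged members. Without the 3 genes it was at 67.3 to 112 CPM in young and 62.4 to 87.9 CPM in aged libraries. Crispld1, a secreted CAP domain protein, gave -1.27 and -2.05 (difference 0.78, adjusted p = 0.0214), and it no longer passed when any cold library was left out (0.53 to 0.79, adjusted p up to 0.292). The count of 117 became 58 or 65 on leaving out young 3D or 14D cold, and 75, 76 or 66 on leaving out aged TN, 3D or 14D cold.

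**Figure D4:**
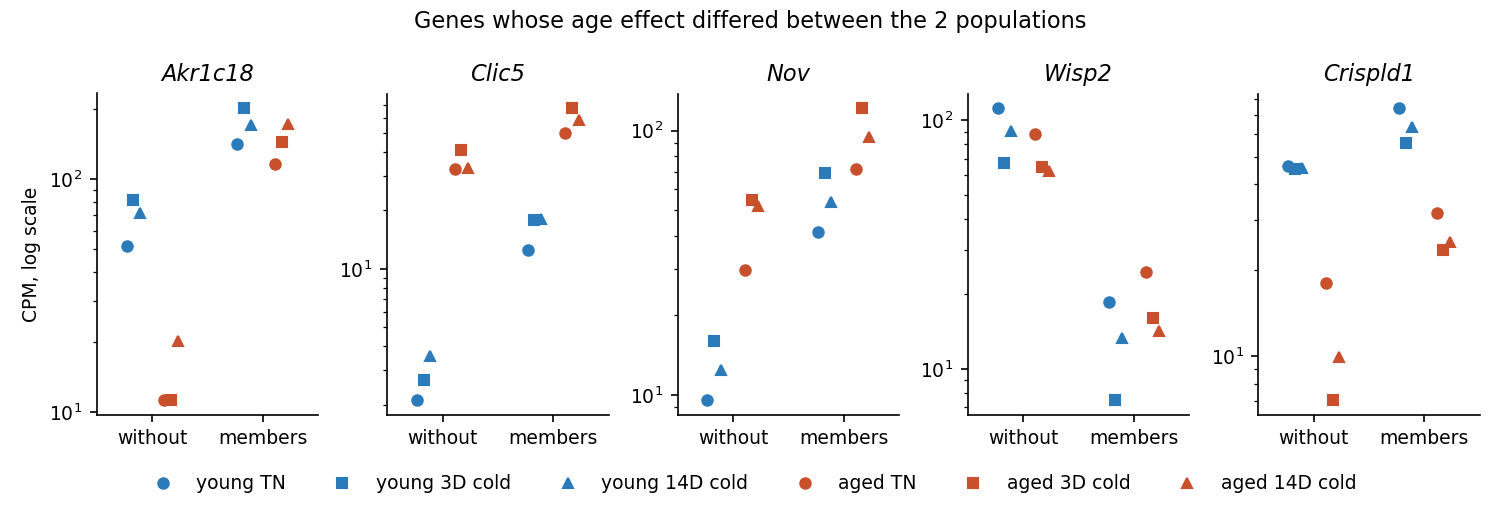
Level (y axis, CPM on a log scale, 1 panel per gene with its own scale) of the 5 genes with the largest interaction of age and cell set, in Dpp4+ fibroblasts without the 3 genes and in members (x axis), with 1 point per library. For Akr1c18 the aged points drop to 11.2 to 20.3 CPM without the 3 genes and stay at 116 to 173 CPM in members.

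Within members, aged mice had less RNA of Postn, Itm2a and most collagens and more of Lypd5, Pltp and Myoc. In Dpp4+ fibroblasts without the 3 genes, Postn, Itm2a, Lypd5, Pltp and Myoc moved the same way. There Postn was at 332 to 767 CPM in young and 41.8 to 89.4 CPM in aged libraries. Pltp was at 18.5 to 28.7 and 186 to 241 CPM, and Myoc at 79.0 to 117 and 460 to 693 CPM. Of 12341 genes tested in members, 1769 differed with age (14.3%), 920 higher (7.45%) and 849 lower (6.88%) in aged mice. Young and aged values were fully apart for 22% of all genes tested. The genes named for size were the 12 largest rises and 12 largest falls among those that passed at a mean of at least 20 CPM and moved the same way at all 3 temperatures. On leaving out a 3D cold library the count was 930 (young) or 960 (aged), and it was 480 with no temperature term. Members were chosen by Dmkn, Krtdap and Pi16, which changed with age in all Dcn+ fibroblasts. The part of that choice in the age differences was not tested.

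Postn, the matricellular protein periostin (chromosome 3, 54361109 to 54391037), had the largest of these falls. It was at 670, 262 and 519 CPM in young and 50.0, 18.6 and 35.3 CPM in aged members at TN, 3D cold and 14D cold. The ages were well apart, and at both ages 3D cold was lowest. The log2 fold change was -3.81 (SE 0.07, edgeR adjusted p = 4.29e-12). Itm2a, a membrane protein of the BRICHOS family, went from 206 ± 16.5 to 23.5 ± 3.34 CPM (SD, n = 3, -3.13).

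Collagens fell as a group, with 14 of 15 lower, none higher and a median of -1.06 beside 0.000812 over all genes. This count and those of the lists that follow for age stand beside 7.45% of all genes tested that were higher and 6.88% that were lower. Col1a1 was at 5970, 3414 and 5642 CPM in young and 2145, 900 and 1535 CPM in aged members, a fall of 1.76 on the log2 scale. Col3a1 was at 9842, 4543 and 9081 CPM in young and 3404, 1370 and 2436 CPM in aged members, a fall of 1.72. The highest aged library lay below the lowest young library for both. The exception, named after its values were seen, was Col6a5, at 1.12 to 2.14 CPM in young and 1.80 to 4.50 CPM in aged members.

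The other matrix lists also had more genes lower than higher in aged members. Sparc, a collagen-binding matricellular protein, fell from 8098 ± 2742 to 2596 ± 628 CPM (-1.61) and Aspn, a small leucine-rich proteoglycan, from 267 to 91.7 CPM (-1.55). Of 17 elastic fiber genes 11 were lower and 1 higher (median -0.33), with Fbln1 (-1.27) and elastin, Eln (-0.88), among the former. The fibrillin Fbn2, below the limit of 20 CPM and named after its values were seen, was at 2.42 ± 1.29 CPM in young and 0.0439 ± 0.0385 CPM in aged members (SD, n = 3). Of 19 matrix glycoproteins and proteoglycans 8 were lower and 3 higher, with Has1 (0.42) among the latter. Gpc3, a glypican that modulates growth factor signaling, fell by 1.82 on the log2 scale. Meg3, an imprinted long noncoding RNA, fell from 2358 ± 167 to 675 ± 14.6 CPM (-1.80). The remaining genes of the 12 largest falls were Il18r1, Cpz, Col4a5 and C1qtnf6, between -1.59 and -2.05.

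Lypd5, a membrane-anchored protein of the LY6 family (chromosome 7, 24349196 to 24355109), had the largest of the 12 rises. It was at 1.35, 2.11 and 1.49 CPM in young and 26.4, 49.5 and 54.7 CPM in aged members, 4.73 higher on the log2 scale (SE 0.14, adjusted p = 3.51e-10). Pltp, the phospholipid transfer protein, was at 21.7, 13.3 and 25.0 CPM in young and 105, 107 and 116 CPM in aged members (2.47), and Myoc, the secreted protein myocilin, at 43.7, 37.6 and 49.0 CPM and 289, 209 and 192 CPM (2.39). For all 3 genes every aged library was above every young one. The other rises of the 12 were Mrgprg, Snhg11, the membrane glycoprotein Gpnmb, the TGF-beta co-receptor Cd109, the prostaglandin transporter Slco2a1, Clic5, Tuba4a, the BH3-only gene Pmaip1 and the tetraspanin Cd9, between 1.53 and 2.76.

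The globins, which mark red blood cells, passed for age as well but did not move the same way at all 3 temperatures. The log2 fold change was 4.48 for Hbb-bt, 2.22 for Hbb-bs, 2.13 for Hba-a2 and 1.90 for Hba-a1 (edgeR adjusted p of 5.65e-05 or smaller). Hbb-bt was at 0.469, 4.72 and 0.226 CPM in young and 0.0999, 131 and 2.44 CPM in aged members at TN, 3D cold and 14D cold. The ages overlapped, and aged 3D cold held most of the signal. Without the members that held 10 or more globin UMIs, Hbb-bs, Hba-a2 and Hba-a1 gave 0.25, 0.65 and 0.09 (adjusted p of 0.75, 0.577 and 0.946 in the same test), and Hbb-bt did not pass the filter on low counts. With DESeq2 none of the 4 passed for age (adjusted p of 0.379 to 0.809). On leaving out young or aged 3D cold, Hbb-bt (1.99 or 1.90) and Hba-a1 (1.69 or 1.66) no longer passed in edgeR's test.

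**Figure D5:**
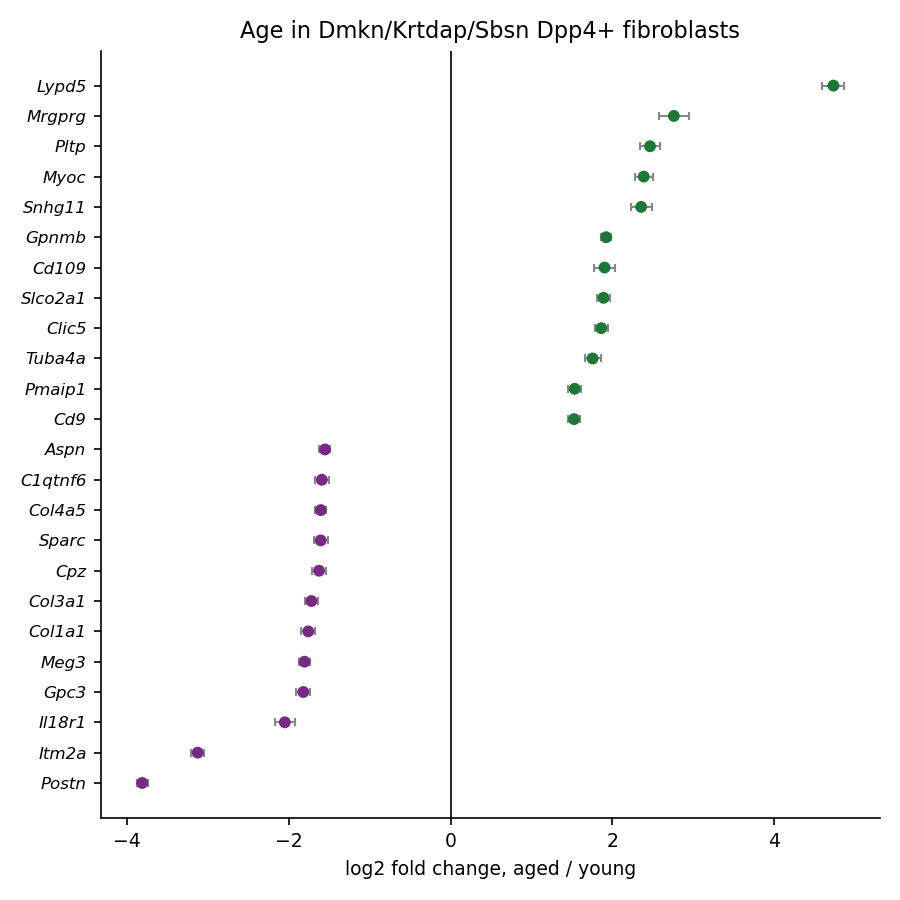
Log2 fold change of aged over young members (x axis) for the 12 largest rises and 12 largest falls (y axis) among genes that passed at a mean of at least 20 CPM and moved the same way at all 3 temperatures, with bars of 1 standard error. Values run from 4.73 for Lypd5 to -3.81 for Postn.

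Secreted immune genes were among the rises. Of 11 complement genes 5 were higher in aged members (7.45% of all genes) and none lower (6.88% of all genes, median of the list 0.22), with C2 at 30.9 and 69.6 CPM (1.18) and C4b at 284 and 477 CPM (0.74). Of 22 chemokine and cytokine genes 9 were higher and 3 lower, with the neutrophil chemokine Cxcl2 (1.00), the monocyte and eosinophil chemokines Ccl8 (0.68) and Ccl11 (0.60) higher and Il18r1 (-2.05) lower. In adipogenic and lipid genes 6 of 22 were higher, including Fabp4 (0.75), and 2 lower, including the lipase Lpl (-0.56). Fabp4 was at 186 ± 55.6 CPM in young and 328 ± 156 CPM in aged members (SD, n = 3), beside 44737 CPM in endothelial cells, and without a temperature term it did not pass (0.82, adjusted p = 0.224). Of the 7 endothelial genes, Cldn5 (0.94, adjusted p = 0.0198) and Kdr (0.81, adjusted p = 0.0192) were higher with age too, at 3.41 and 3.81 CPM in aged members, and the list summed to 194 ± 54.9 CPM in young and 344 ± 163 CPM in aged members. Of the 8 adipocyte genes, Car3 was higher (0.66, adjusted p = 0.0426), and that list summed to 15.1 ± 3.96 and 21.2 ± 7.66 CPM. The part of endothelial and adipocyte RNA in the change of Fabp4 was not tested. Of the smooth muscle and pericyte genes, Rgs5 (0.94) and Notch3 (0.36) were higher and Kcnj8 (-1.31) and Acta2 (-0.22) lower in aged members. The Schwann list gene Mbp was higher (0.43). The part of RNA from those cells in the age differences was not tested either.

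The Dpp4+ progenitor genes gave 1 of 15 higher and 3 lower in aged members (median -0.06). Of the circadian clock genes 6 of 16 were higher, with Nr1d2 (0.70), Tef (0.68) and Cry2 (0.44), and none lower, and the time of day of each collection was not given in the sources used here. Immediate early genes gave 3 higher and 1 lower of 16. Of 20 Wnt genes 3 were higher and 5 lower, with the ligand Wnt5a (-0.83) and the antagonist Sfrp2 (-0.83) among the latter. Of the genes that the study singled out for age in these fibroblasts, Cd9, Pltp and Gpnmb were higher and Meg3, Itm2a, Gpc3 and Postn lower, and since they were chosen on these samples they are not independent evidence. Krt19 was the 1 mesothelial gene abundant enough to test and rose with age by 1.34 on the log2 scale.

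Temperature called 994 of 12341 genes in members (8.05%), with age in the model and 1 young and 1 aged library at each temperature. Without an age term 0 genes passed in edgeR's test (998 at an unadjusted p under 0.05), so every temperature call given here was lost, and DESeq2 with the age term called 473. Of 15 collagens 12 passed, and Col3a1 changed by -1.21 from TN to 3D cold and by -0.30 from TN to 14D cold. Here and below, the change to 3D cold is a difference of mean log2 CPM. The change to 14D cold is the coefficient of edgeR's fit, so they are not quite the same measure. Among smooth muscle and pericyte genes, Acta2 (-1.09), Tagln (-1.18) and Myh11 (-0.91) passed too and were lower at 3D cold than at TN. Rgs5 passed as well, at -0.81 from TN to 3D cold and 1.475 from TN to 14D cold. The part of smooth muscle cells and pericytes in the temperature differences was not tested. Sult1e1, the oestrogen sulfotransferase, was at 304, 81.1 and 129 CPM in young and 290, 108 and 199 CPM in aged members at TN, 3D cold and 14D cold (adjusted p = 2.74e-05). Lsmem1, a leucine-rich single-pass membrane protein, was at 104, 64.6 and 23.5 CPM in young and 97.9, 60.2 and 44.0 CPM in aged members (adjusted p = 5.12e-04). Both ages fell from TN, Sult1e1 to its lowest value at 3D cold and Lsmem1 at 14D cold. On leaving out a 3D cold library the count was 263 (young) or 373 (aged), and on leaving out a 14D cold library 1777 or 1890.

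Of 16 circadian clock genes 8 passed for temperature, beside 8.05% of all genes tested, and these calls too were lost without an age term. Dbp, chosen after its values were seen, was at 3.54, 25.3 and 3.16 CPM in young and 6.90, 27.5 and 9.27 CPM in aged members, so that both 3D cold libraries stood above the rest.

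The 4 genes with the largest temperature range were the globins Hbb-bs, Hba-a1, Hba-a2 and Hbb-bt, and these came from a few barcodes. Hbb-bs was at 1.72, 108 and 1.99 CPM in young and 0.999, 481 and 18.8 CPM in aged members. In young 3D cold 2 members with 10 or more globin UMIs held 93.1% of the globin UMIs, and in aged 3D cold 3 members held 99.1%, up to 6978 UMIs in 1 barcode. Without such barcodes Hbb-bs, Hba-a1 and Hba-a2 gave adjusted p of 0.0612, 0.422 and 0.758 for temperature in the same test, an alternative added after the data had been seen. Hba-a1 and Hba-a2 are near-identical copies, so their separate counts are uncertain.

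Single members were also compared with each other, at 2000 UMIs per cell. Among genes at a mean of at least 0.05 UMIs, Hbb-bs and Hba-a1 had the largest ratio of variance to mean UMIs averaged over libraries (118 and 52.0), but by library it ran from 0.996 to 401 and from 0.998 to 176. They were followed by the nuclear RNA Malat1 (21.1), Gm42418 (14.0), the contractile genes Acta2 (9.94) and Tagln (8.89), the chemokine Ccl2 (8.17), Fabp4 (7.33), Igfbp5 (6.67) and the actin-severing protein Gsn (6.31). Ccl2 was held by 24.4%, 28.1% and 41.4% of young and 31.3%, 34.5% and 42.9% of aged members at TN, 3D cold and 14D cold. Fabp4 was held by 11.6%, 12.4% and 14.8% of young and 14.0%, 18.2% and 34.5% of aged members. Both were highest in 14D cold at each age, and aged 14D cold, the library with the most shallow barcodes, had the highest share of Fabp4.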

How the data were processed

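Single-cell libraries were prepared by the authors with 10x Genomics 3′ v3.1 chemistry. The values used are raw UMI counts per gene and barcode, as deposited by the authors, made with Cell Ranger 3.1.0 per the file headers on mm10. The submitters' processing notes also name R 4.1.1 and Seurat, whose output was not used here. The members and gene lists were chosen with earlier results of these data known.

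Barcodes were selected by the stated rule. No doublet caller was run, and the rule removed barcodes with a UMI of Pecam1, Cdh5, Ptprc or F3. UMIs of selected cells were summed per library and tested with edgeR 4.0.16 in R 4.3.3 (TMM factors, filterByExpr, quasi-likelihood F test, Benjamini-Hochberg adjustment over all genes tested, threshold 0.05). Age was tested with temperature as a factor, which leaves 2 residual degrees of freedom that edgeR moderates across genes. Temperature was tested with age as a factor, and the cell sets with library as a block. Standard errors (SE) were taken as the size of the log2 fold change over the root of F. CPM of tested genes use TMM-adjusted library sizes and differ slightly between fits, and summed marker levels use plain totals. The rule genes were not tested in members. Shares were compared by exact permutation over libraries, and binomial intervals (exact) reflect counting error alone. A gene in no cell was given a floor of 3 cells. Thinning drew 2000 UMIs per cell without replacement in Python 3.11.15 (numpy 2.4.6, scipy 1.17.1).

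Named genes were the 12 largest rises and falls with age (same direction at all 3 temperatures), the 15 highest and 10 lowest in members (same direction in all 6 libraries), the 6 largest temperature ranges and the 5 largest interactions that passed at a mean of at least 20 CPM, up to 4 called genes per list at that level, and the genes named by the study; a few genes that this rule names are not reported here. Alternatives were DESeq2 1.42.0, RLE factors, no filter, other terms, other depths and thresholds of the rule, and each library left out.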

Additional observations from a re-analysis of the deposited data

Results flagged for a closer look

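The interaction of age and cell set tests the age difference in members against that in Dpp4+ fibroblasts without the 3 genes. It called 117 of 12125 genes, and the 5 largest at a mean of at least 20 CPM follow. The log2 difference was 2.05 for Akr1c18, -1.82 for Clic5, -1.02 for Nov, 0.80 for Wisp2 and 0.78 for Crispld1 in edgeR's quasi-likelihood test. A positive value means that the gene was lowered less or raised more with age in members. Both sets were chosen by genes that changed with age, and the part of that choice was not tested. For Wisp2 the age differences had opposite signs (0.50 in members and -0.31 in the other cells), with ages that overlapped in both sets. No age group held the 4 libraries that a test for a stray library needs.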

How the results depend on the processing

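The count of age genes in members, 1769, was 872 with DESeq2, 480 with no temperature term and 778 with equal cell numbers at 2000 UMIs each, and 930 to 1670 with 1 library left out. All 869 and 480 genes that DESeq2 and the fit without temperature shared with the 1769 had the same sign. The 994 temperature genes became 473 with DESeq2, 1951 with no filter on low counts, 433 with equal cells and 0 with no age term (998 at an unadjusted p under 0.05), and 263 to 1890 with 1 library left out. The 3145 genes between cell sets became 1943 with DESeq2 and 2569 to 2931 with 1 library left out. The 117 interaction genes became 56 with DESeq2, 306 with no filter and 58 to 149 with 1 library left out. In Dcn+ fibroblasts 2 of the 3 genes passed for age, and 0 with no temperature term (Dmkn 1.11, Krtdap 1.17), where Sbsn changed sign to 0.019. With 1 library left out, Dmkn gave 0.96 to 1.22, Krtdap 0.98 to 1.28 and Sbsn -0.13 to 0.14. The difference of 11.0 points in the share of members, 9.20 to 13.0 with 1 library left out (p = 0.2, the smallest an exact permutation test of 2 against 3 allows), reversed to -0.81 as a share of Dcn+ fibroblasts and -1.45 as a share of barcodes within the quality limits. Among named genes, Acta2 turned from -0.22 to 0.18 for age with equal cells, and Hbb-bt, at 1.46 for 14D cold, ranged from -2.22 (without aged TN) to 4.64 with 1 library left out. The causes were not tested. For age, 1271 of the values of named genes under the alternatives kept direction and call, 136 lost the call and 1 reversed. No paired analysis was possible because each age and temperature had 1 library and so no replicate numbers to pair, beyond the temperature term that sets young against aged at each temperature and the library block between cell sets.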
